A study of Homo sapiens with 4 samples.

Results

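The genes described here are 10 feedback genes of receptor tyrosine kinase and ERK signalling: *DUSP4*, *DUSP5*, *DUSP6*, *SPRY1*, *SPRY2*, *SPRY4*, *SPRED1*, *SPRED2*, *ETV4* and *ETV5*. They were chosen by name, with earlier results of these data known. Of the 10, 9 had a value among the 16811 genes of the table. *SPRY1* was not analysed here. RNA-seq was made from MCF12A cells, a non-tumorigenic human mammary epithelial line (a label calls it a breast cancer line). The study compared 2 libraries of cells labelled *C1orf132* KO (edited cells) with 2 libraries labelled wild type. In the edited cells CRISPR/Cas9 had removed the p2 promoter region of *C1orf132*, the host gene of miR-29b2 and miR-29c. They were grown from single sorted cells as colonies, and the sources used here do not say whether both edited libraries came from the same colony. Both groups were kept in the same medium with horse serum, recombinant EGF, insulin, hydrocortisone and cholera toxin, so a ligand of the EGF receptor was present in every culture. The groups rest on the labels, because *C1orf132* itself was not analysed here.

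When a growth factor binds its receptor tyrosine kinase, RAS, RAF and MEK pass the signal on to the kinase ERK, which enters the nucleus and switches on a set of genes. Several of these genes turn the pathway down again. The DUSP genes encode phosphatases that remove the activating phosphates from MAP kinases, and the SPRY and SPRED genes encode membrane-associated inhibitors that act at the level of RAS and RAF. *ETV4* and *ETV5* encode ETS transcription factors of the PEA3 group, which carry the signal on to further genes. Their transcripts are therefore widely read as the output of the pathway.

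The values are a normalized expression signal whose normalization is not given in the sources used here. They were read as a level per transcript length, also scaled between libraries. Levels of different genes are set side by side on that reading. Pairs of values below are given with replicate 1 first. The sum over all genes was 1655440 and 1652350 (edited) against 1604210 and 1444640 (wild-type). These sums do not give the depth. From low genes with a single transcript, 1 read on a transcript of 1 kb was worth roughly 0.101, 0.0900, 0.108 and 0.101 in the same order. Only a minority of those genes came out at whole reads, so this step is a rough estimate. For the 9 genes this gives from about 10 reads (*SPRY4* in wild-type replicate 2) to about 3380 reads (*DUSP6* in edited replicate 2), and the next lowest number was about 43 (*SPRY2* in wild-type replicate 2). These read numbers are rough and cover counting error only. Groups were compared with limma on log2(value + 1) over the 9590 genes with a mean of at least 10, which 5 of the 9 genes reached. The 4 lower ones, *SPRY2*, *SPRY4*, *SPRED1* and *SPRED2*, were read from the same model fitted to all 16811 genes. On this scale the fold change of a low gene comes out too small. The smallest two-sided p of an exact permutation test is 0.333 with 2 libraries on each side, so the test rests on the variance that limma shares across genes.

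The mean level of every one of the 9 feedback genes was higher in edited than in wild-type cells, by 0.87 to 2.62 on the log2 scale, but none of the differences passed the test. The largest values were those of *ETV5*, *SPRY4*, *DUSP6* and *DUSP4*. With limma and Benjamini-Hochberg adjustment, 0 of 9 genes were called at 0.05, against 7.09% of the 9590 genes with a mean of at least 10 and 4.73% in the fit of all genes. An unadjusted p under 0.05 was found for 4 of the 9, *DUSP4*, *ETV5*, *SPRY4* and *SPRED1*. Such a p was common, with 3095 of the 9590 genes and 4909 of all 16811 genes under 0.05 in the same fits. The adjusted p ranged from 0.0887 for *DUSP4* to 0.383 for *ETV4*. The median log2 fold change of the 9 genes was 1.08, beside 0.01 over all genes. A fitted value above 0 was found for 9 of 9, beside 50.9% of all genes. The 9 genes are read as output of the same pathway, so they do not count as 9 independent observations. Scaling the libraries to equal totals moved the median of the tested genes from 0.09 to -0.03. The fold changes of the 9 genes fell too, for *DUSP4* from 1.84 to 1.73 and for *SPRY4* from 1.97 to 1.92. With quantile normalization they rose instead, for *ETV4* from 0.87 to 1.20.

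**Figure D1:**
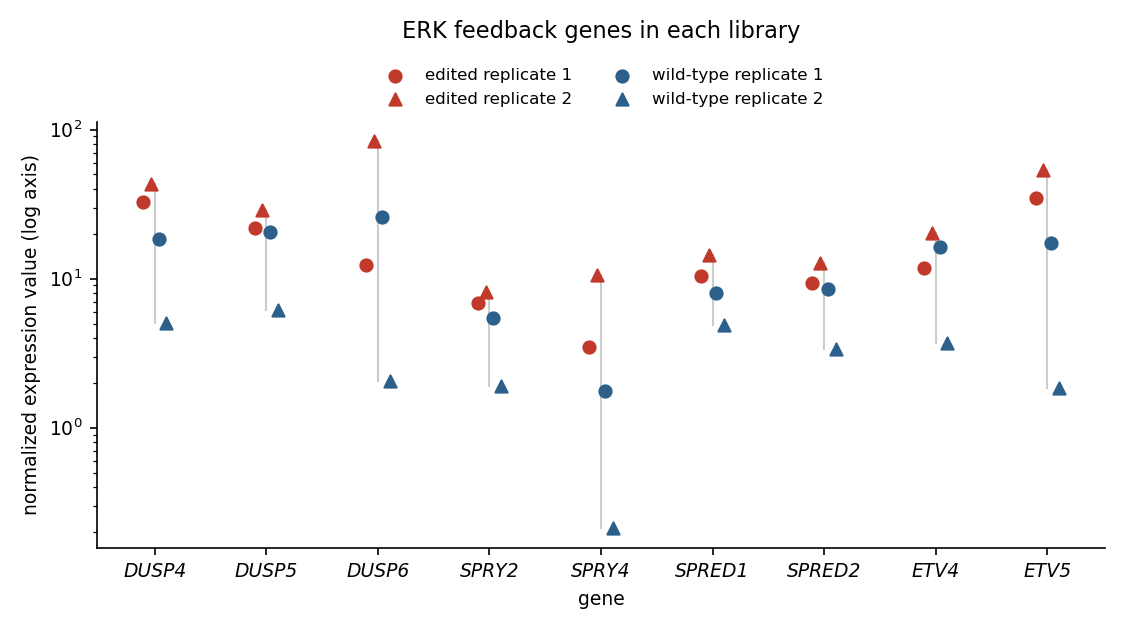
Normalized expression value (log axis) of each feedback gene in the 4 libraries, with edited libraries in red, wild-type libraries in blue, replicate 1 as circles and replicate 2 as triangles. In all 9 genes edited replicate 2 is the highest point and wild-type replicate 2 the lowest, and in *DUSP6* and *ETV4* wild-type replicate 1 lies above edited replicate 1.

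Among the phosphatases, *DUSP4*, which encodes a nuclear MAP kinase phosphatase, was at 32.8 and 43.3 (edited) against 18.4 and 5.04 (wild-type). The groups did not overlap, but wild-type replicate 2 stood well below wild-type replicate 1. The mean was 38.1 ± 7.43 (SD, n = 2) against 11.7 ± 9.48 (SD, n = 2), and the log2 fold change was 1.84 (standard error 0.54, 95% confidence interval 0.48 to 3.19, adjusted p = 0.0887 from limma). *DUSP5*, also a nuclear phosphatase with a preference for ERK, was at 22.0 and 28.7 (edited) against 20.4 and 6.13 (wild-type). Here edited replicate 1 and wild-type replicate 1 were nearly level, with edited replicate 2 above them and wild-type replicate 2 well below. The log2 fold change was 1.08 (95% confidence interval -0.21 to 2.37, adjusted p = 0.210 from limma).

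*DUSP6* encodes a cytoplasmic phosphatase that acts mainly on ERK, and its transcript is among the best known readouts of FGF and EGF signalling. It had the widest spread within groups of the 9 genes. Its value was 12.4 and 83.9 (edited) against 26.0 and 2.05 (wild-type). The groups overlapped, since wild-type replicate 1 lay above edited replicate 1. The edited replicates differed 6.75-fold and the wild-type replicates 12.7-fold, while the ratio of the group means was 3.44. The log2 fold change of 1.90 had a standard error of 1.24 and a 95% confidence interval from -1.19 to 4.98 (adjusted p = 0.330 from limma). Both a lower and a far higher level in edited cells lie within that interval.

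The promoter of *DUSP6* is shown because this gene differed most between replicates of a group, and that of *SPRED2* because it was the only one with a match to a motif searched in full. RefSeq windows on GRCh38, from 250 bases before to 50 bases after an annotated start, were at hand for 5 of the 9 genes (*DUSP6*, *SPRY2*, *SPRY4*, *SPRED1*, *SPRED2*) and for *SPRY1*, 10 windows in all. Both strands were searched for the octamers TGAATGAA and TGAATGGA, bound by the repressor Capicua (CIC), which ERK relieves from its targets. The ETS motif CCGGAAGT, the AP-1 motif TGACTCA and the CREB motif TGACGTCA were searched as well. Only TGACTCA was found, in 1 of 10 windows, beside 4.95% of the 35116 windows of all genes. The CIC octamers were in 1.65% and 1.03% of all windows, CCGGAAGT in 4.14% and TGACGTCA in 1.85%. The 6 letters that both CIC octamers share, TGAATG, were added after the sequences were seen; they were in 2 of 10 windows, beside 11.8% of all windows. The sequences below run 5′ to 3′ along the transcribed strand. The *DUSP6* sequence holds the 250 bases before its start on the minus strand (chr12:89352502-89352751), with TGAATG in capitals.
DUSP6: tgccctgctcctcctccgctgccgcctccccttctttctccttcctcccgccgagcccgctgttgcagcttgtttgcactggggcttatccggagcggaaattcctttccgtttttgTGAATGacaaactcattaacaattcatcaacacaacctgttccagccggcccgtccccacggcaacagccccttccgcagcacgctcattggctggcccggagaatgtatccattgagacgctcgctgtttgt
The *SPRED2* sequence ends with the first transcribed base of a start inside the gene, on the minus strand (chr2:65366778-65367028), with TGAATG and TGACTCA in capitals.
SPRED2: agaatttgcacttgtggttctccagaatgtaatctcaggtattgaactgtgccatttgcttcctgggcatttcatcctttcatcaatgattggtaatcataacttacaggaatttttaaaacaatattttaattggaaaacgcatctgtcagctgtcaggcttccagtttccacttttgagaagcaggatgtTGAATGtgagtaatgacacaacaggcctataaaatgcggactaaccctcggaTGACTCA
The *DUSP6* window had a GC content of 57.2%, close to the median of 58% over all promoters, and the *SPRED2* window had 39.0%. Which start of *SPRED2* the reads came from was not analysed here. A match describes the letters only, and binding was not measured.

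Of the Sprouty genes, *SPRY4* was the lowest in level and varied most. Its value was 3.46 and 10.6 (edited) against 1.77 and 0.211 (wild-type), the last from about 10 estimated reads. Both edited libraries lay above both wild-type libraries. The mean was 7.02 ± 5.03 (SD, n = 2) against 0.990 ± 1.10 (SD, n = 2), a ratio of 7.08. The log2 fold change was 1.97 (standard error 0.61, 95% confidence interval 0.44 to 3.51, adjusted p = 0.111 from limma). *SPRY2*, the Sprouty gene best known from EGF receptor signalling, was at 6.82 and 8.08 (edited) against 5.43 and 1.89 (wild-type). The edited replicates and wild-type replicate 1 lay close together, with wild-type replicate 2 below them. Its log2 fold change was 0.97 (95% confidence interval -0.09 to 2.03, adjusted p = 0.198 from limma).

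The SPRED genes encode relatives of Sprouty that bring the RAS inactivator neurofibromin to the membrane. *SPRED1* was at 10.5 and 14.4 (edited) against 8.02 and 4.90 (wild-type), the narrowest spread between wild-type replicates of the 9 genes. Its log2 fold change was 0.87 (standard error 0.30, 95% confidence interval 0.10 to 1.63, adjusted p = 0.137 from limma). *SPRED2* was at 9.42 and 12.7 (edited) against 8.56 and 3.37 (wild-type). As in *DUSP5*, edited replicate 1 and wild-type replicate 1 nearly met. The log2 fold change was 0.89 (95% confidence interval -0.17 to 1.95, adjusted p = 0.228 from limma).

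On the log2(value + 1) scale *ETV5* had the largest fold change of the 9 genes, while the ratio of the group means was larger for *SPRY4* (7.08) than for *ETV5* (4.64). The value of *ETV5* was 34.9 and 53.6 (edited) against 17.2 and 1.85 (wild-type). The groups did not overlap, and the wild-type replicates differed 9.32-fold. The mean was 44.3 ± 13.2 (SD, n = 2) against 9.54 ± 10.9 (SD, n = 2). The log2 fold change was 2.62 (standard error 0.84, 95% confidence interval 0.54 to 4.70, adjusted p = 0.102 from limma). *ETV4* differed from it, with 11.7 and 20.2 (edited) against 16.3 and 3.70 (wild-type). Wild-type replicate 1 lay between the edited replicates, so the groups overlapped. Its log2 fold change was 0.87 (95% confidence interval -0.72 to 2.46, adjusted p = 0.383 from limma).

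Leaving out 1 library showed how much of each difference rested on wild-type replicate 2. Without it, the median log2 fold change of the 9 genes was 0.39, and the values ranged from -0.069 for *ETV4* to 1.37 for *SPRY4*. *DUSP5* then stood at 0.29, *DUSP6* at 0.32 and *SPRED2* at 0.32, while *DUSP4* kept 0.99 and *ETV5* 1.28. The ratio of the edited mean to wild-type replicate 1 alone was 2.57 for *ETV5*, 2.06 for *DUSP4* and 0.984 for *ETV4*. Without wild-type replicate 1 the median was 1.88, and *ETV5* at 3.96 was then the only one of the 9 past the threshold (adjusted p = 0.0481 from limma; 0.0481 to 0.211 over the alternatives computed, crossed pairs apart). Without edited replicate 1 the median was 1.27, and without edited replicate 2 it was 0.86. Edited replicate 2 mattered most for *DUSP6*, whose log2 fold change was 0.57 without it and 3.23 without edited replicate 1. In these fits the group with 1 library is assumed to vary like the other. With 2 wild-type libraries, a low replicate 2 and a high replicate 1 cannot be told apart.

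**Figure D2:**
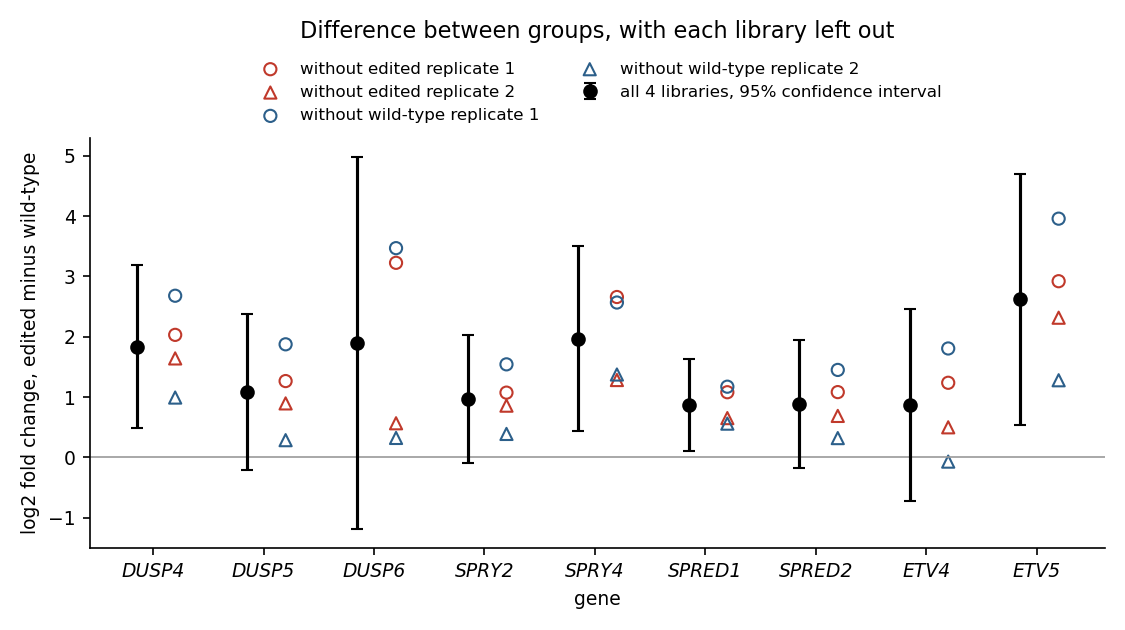
Log2 fold change (edited minus wild-type) of each feedback gene on the log2(value + 1) scale; black points with bars give the estimate and 95% confidence interval from all 4 libraries, open symbols the estimate with 1 library left out. The estimate without wild-type replicate 2 (blue triangles) is the lowest for 8 of 9 genes and falls to -0.069 for *ETV4*.

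The 9 genes shared 1 order of the libraries at both ends. Edited replicate 2 was the highest and wild-type replicate 2 the lowest of the 4 libraries for 9 of 9 genes, beside 10.0% of all genes. This order was noticed after the values were seen and is given as a description. Wild-type replicate 1 exceeded wild-type replicate 2 by more than 1 on the log2(value + 1) scale in 8 of 9 genes, all but *SPRED1*, beside 2.83% of all genes. Of the 5 genes with a mean of at least 10 this held for 5, beside 1.87% of the 9590. The median difference between the wild-type replicates was 1.59 over the 9 genes and 0.11 over the 9590. Between the edited replicates it was 0.43 over the 9 genes, with 2 of them, *DUSP6* and *SPRY4*, above 1, and -0.03 over the 9590. For the median of the 9 genes, the wild-type replicates were thus farther apart (1.59) than the groups (1.08). Both edited libraries lay above both wild-type libraries in 7 of 9 genes, beside 31.4% of all genes. With 1 library on each side, the difference between replicates could not be tested.

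**Figure D3:**
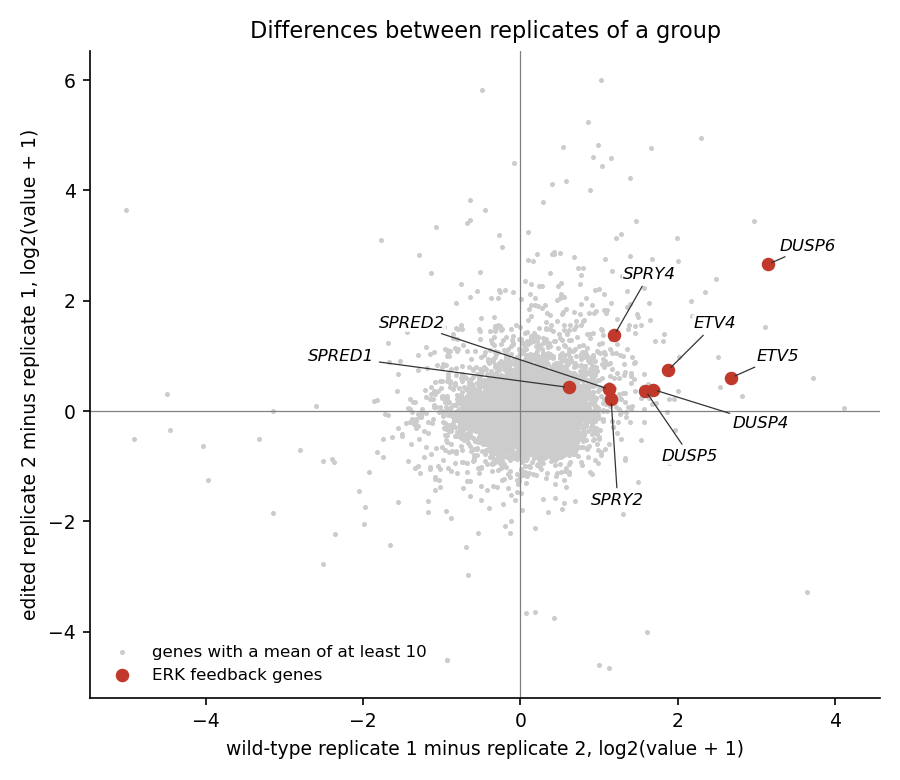
Difference between the wild-type replicates (horizontal, replicate 1 minus 2) and between the edited replicates (vertical, replicate 2 minus 1), both in log2(value + 1), for the 9590 genes with a mean of at least 10 (grey) and the 9 feedback genes (red). The feedback genes lie to the right of 0, from 0.61 for *SPRED1* to 3.15 for *DUSP6*, and above 0 on the vertical axis.

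With the values read as levels per length, the order in edited cells was *DUSP6* (mean 48.2), *ETV5* (44.3), *DUSP4* (38.1), *DUSP5* (25.4), *ETV4* (16.0), *SPRED1* (12.5), *SPRED2* (11.1), *SPRY2* (7.45) and *SPRY4* (7.02). The values of neighbours overlapped between libraries, except between *DUSP4* and *DUSP5*, between *DUSP5* and *ETV4* and between *SPRED2* and *SPRY2*. By the mean in wild-type cells, *DUSP6* (14.0) was again first and *SPRY4* (0.990) last. Only *SPRY2* (3.66) and *SPRY4* were neighbours without overlap of their ranges. *ETV5* (9.54) ranked below *DUSP5* (13.3), *DUSP4* (11.7) and *ETV4* (9.98) there, with values that overlapped theirs. The first place of *DUSP6* rested on 1 library in each group. It was at 12.4 in edited replicate 1, below *ETV5* (34.9), and at 2.05 in wild-type replicate 2, below *DUSP5* (6.13).

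Upstream of these genes, receptor genes were called in both directions and 1 ligand gene was called higher. Of 18 receptor tyrosine kinase genes, 13 had a value, and of these 2 were higher, 3 lower and 8 not called in edited cells (limma, adjusted p under 0.05). These 5 of 13 stand beside 7.09% of the tested genes and 4.73% of all genes. *FGFR1*, a receptor for fibroblast growth factors, was at 104 and 106 (edited) against 25.1 and 22.4 (wild-type) (log2 fold change 2.10, adjusted p = 0.00656). Its replicates were nearly level in both groups, in contrast to the feedback genes. *AXL*, a receptor for GAS6, was at 21.3 and 29.6 (edited) against 8.36 and 4.43 (wild-type) (log2 fold change 1.87, adjusted p = 0.0399). *ERBB3*, the neuregulin receptor without a strong kinase of its own, was at 6.28 and 8.94 (edited) against 42.5 and 29.5 (wild-type) (log2 fold change -2.10, adjusted p = 0.0202). The collagen receptor gene *DDR1* (log2 fold change -2.34, adjusted p = 0.0430) and *FGFR2* (-1.48, adjusted p = 0.0350) were lower as well. The gene of the EGF receptor itself, named after its values were seen because EGF was in the medium, was at 38.7 and 81.5 (edited) against 148 and 116 (wild-type) and did not pass the test (log2 fold change -1.21, adjusted p = 0.0958).

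Of 19 ligand genes, 10 had a value and 1 was called, beside 7.09% of the tested genes and 4.73% of all genes. *FGF2*, which encodes a ligand of *FGFR1*, was at 9.17 and 21.7 (edited) against 0.780 and 0.516 (wild-type) (log2 fold change 3.21, limma adjusted p = 0.0307). The most abundant ligand genes, those of the EGF receptor ligands amphiregulin and TGF-alpha (*AREG*, log2 fold change 0.20, and *TGFA*, -0.13) and *PDGFC* (0.11), had adjusted p values of 0.768, 0.813 and 0.746. In the cascade from adaptors to ERK and its kinases, 19 of 20 genes had a value, with a median log2 fold change of -0.19. Of these, 0 were called by limma and 5 had an unadjusted p under 0.05. Here and in the lists below, such counts stand beside 3095 of the 9590 genes and 4909 of all 16811 genes. The 3 most abundant cascade genes were *SHC1* (0.23), an adaptor, *MAP2K2* (0.21), which encodes MEK2, and *RPS6KA1* (-0.34), which encodes a kinase downstream of ERK. In the repressor complex of CIC, *CIC* was at 30.9 and 34.4 (edited) against 30.8 and 33.6 (wild-type) (log2 fold change 0.02, adjusted p = 0.945). Its partners *ATXN1* (-1.05, adjusted p = 0.0967) and *ATXN1L* (-0.38, adjusted p = 0.325) did not pass the test.

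Of 10 other genes of the DUSP, SPRED and ETV families, 9 had a value, with a median log2 fold change of 0.14. Of these, 1 was called higher, beside 7.09% of the tested genes and 4.73% of all genes called in either direction. *DUSP1*, a phosphatase gene induced by growth factors, stress and glucocorticoids, was at 183 and 378 (edited) against 56.0 and 32.5 (wild-type) (log2 fold change 2.60, standard error 0.42, adjusted p = 0.0336 from limma). *DUSP7*, the relative of *DUSP6* that also acts on ERK, was at 27.9 and 41.2 (edited) against 43.6 and 39.1 (wild-type) (log2 fold change -0.28, adjusted p = 0.445), and it did not show the low value in wild-type replicate 2. *DUSP10*, which acts on the kinases JNK and p38, had a log2 fold change of 0.14 (adjusted p = 0.828). Of 11 other feedback inhibitors, 11 had a value and 0 were called by limma (2 at an unadjusted p under 0.05). *ERRFI1*, an inhibitor of the EGF receptor that ERK signalling induces, was highest in edited replicate 2 (226) and lowest in wild-type replicate 2 (26.3), the same high and low library as in the 9 genes (log2 fold change 0.80, adjusted p = 0.596). *PEBP1*, which encodes the RAF kinase inhibitor protein (log2 fold change 1.02, adjusted p = 0.0592), and *LZTR1*, which marks RAS proteins for degradation (0.51, adjusted p = 0.118), did not pass the test.

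Of 17 other genes that respond to ERK, 13 had a value and 0 were called by limma (4 at an unadjusted p under 0.05), with a median log2 fold change of 0.10. Abundant genes of this list were *MCL1*, which encodes an inhibitor of apoptosis (log2 fold change 0.20, adjusted p = 0.774), and *MYC*, which encodes a transcription factor (0.26, adjusted p = 0.537). In 5 of the 13 genes edited replicate 2 was the highest and wild-type replicate 2 the lowest library, beside the 10.0% of all genes given above. Wild-type replicate 1 exceeded replicate 2 by more than 1 (log2) in 3 of them, which are named after their values were seen. *FOSL1*, an AP-1 subunit, was at 26.1 and 7.76 in the wild-type replicates. *EGR1*, an immediate-early gene, was at 36.2 and 15.0 there, and *PHLDA1* at 23.1 and 9.32. In the edited replicates *FOSL1* was at 46.8 and 66.0, *EGR1* at 24.8 and 52.6 and *PHLDA1* at 9.45 and 23.3. Their log2 fold changes were 1.88, 0.61 and 0.01 (adjusted p = 0.0836, 0.441 and 0.988 from limma). Over the 7 pathway lists, 78 of 98 genes had a value, 4 were called higher and 3 lower. These 7 of 78 are close to the background of 7.09% of the tested genes and 4.73% of all genes. Without wild-type replicate 1 or without wild-type replicate 2, 0 of these 7 calls remained.

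**Figure D4:**
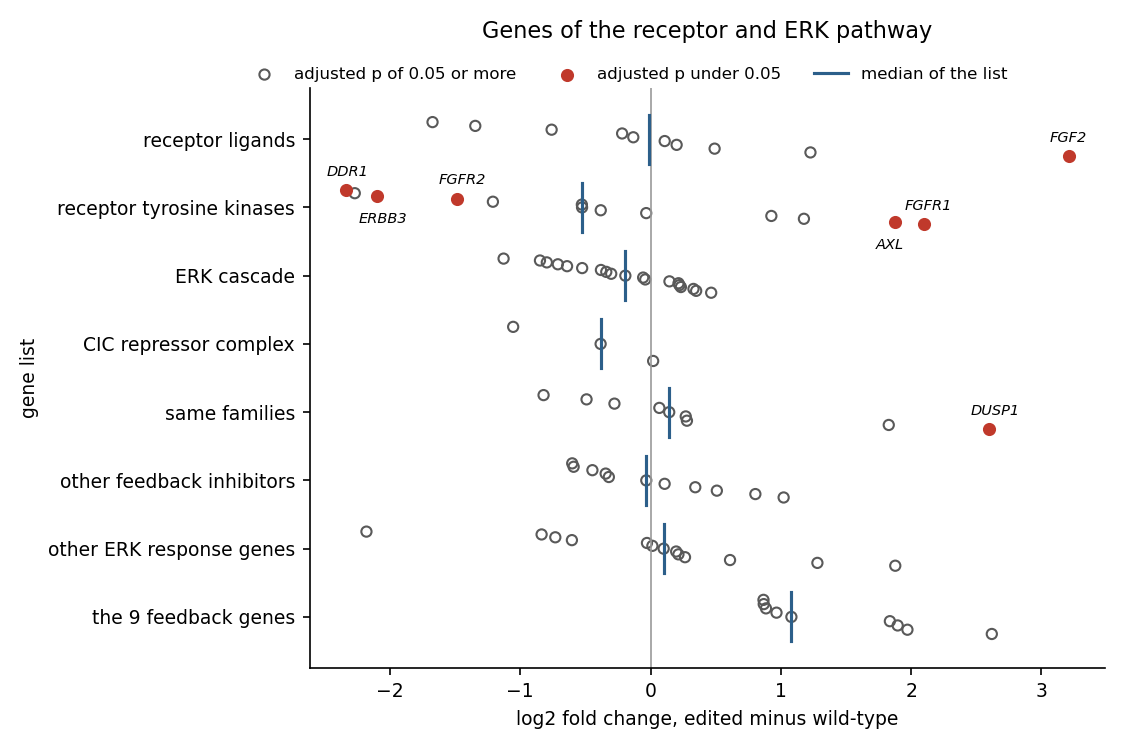
Log2 fold change (edited minus wild-type, horizontal) of the genes with a value in each pathway list and of the 9 feedback genes; filled red points passed an adjusted p of 0.05 (limma), open points did not, and blue lines mark the list medians. The 7 red points are named, and the feedback genes all lie to the right of 0, between 0.87 and 2.62, without a red point.

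The genes whose pattern over the 4 libraries was closest to that of *ETV5*, among 4192 genes with a mean of at least 50, were *THBS1*, *NNMT* and *ABCC3*. Likeness was the root mean square difference of centred log2(value + 1), which was 0.21 for *THBS1*, 0.49 for *NNMT* and 0.56 for *ABCC3*. *THBS1*, which encodes the matrix protein thrombospondin 1, was at 136 and 271 (edited) against 92.0 and 15.3 (wild-type). It did not pass the test either, with a log2 fold change of 2.31 and a limma adjusted p of 0.125. Over 4 libraries such a match describes the order and spacing of 4 values only.

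Cell markers differed between the groups and between the wild-type replicates. All 15 mammary epithelial markers had a value, and in edited cells 7 were lower and 1, *KRT8*, was higher, beside 7.09% of the tested genes called in either direction. The single markers given here were chosen after their values were seen. *CDH1*, which encodes E-cadherin, was at 3.89 and 1.54 (edited) against 150 and 123 (wild-type). *GRHL2* and *ESRP1*, which encode epithelial regulators of transcription and splicing, were also near 0 in the edited libraries, with highest values of 0.137 and 5.19 there. Other markers of the list had high values there, *KRT17* among them although it was called lower, with *KRT5* at 3514 and 3056, *KRT17* at 621 and 1738, *KRT18* at 266 and 296 and *ITGB4* at 294 and 1277 in the edited libraries. Some defining epithelial markers were thus near 0 in the edited libraries while the keratin genes *KRT5*, *KRT17* and *KRT18* were not. The simple keratin gene *KRT19* was near 0 there too, at 0.471 and 0, and was low in wild-type cells as well, with a highest value of 6.42. Its log2 fold change of -2.11 did not pass the test (limma adjusted p = 0.0569). The summed value of this list was 5278 and 7070 (edited) against 12811 and 21342 (wild-type). The basal keratin gene *KRT14* was at 80.3 and 190 (edited) against 585 and 1880 (wild-type). Its log2 fold change of -3.08 did not pass the test (limma adjusted p = 0.0512). Between the wild-type replicates *KRT18*, a simple keratin gene, went the other way, at 275 and 82.2. Of 9 mesenchymal markers 7 had a value and 3 were higher, *VIM* (log2 fold change 2.16, limma adjusted p = 0.0210), *CDH2* and *ZEB1*. These calls stand beside 7.09% of the tested genes and 4.73% of all genes called in either direction. *ZEB2* (log2 fold change 1.59), *TWIST1* (0.35) and *SNAI2* (-0.30) were not called. The sums of the list were 1069 and 5051 (edited) against 986 and 583 (wild-type). *FN1*, which encodes fibronectin and was not called (log2 fold change 0.83, adjusted p = 0.707), carried most of the sum in edited replicate 2. Without it the sums were 898 and 1317 (edited) against 341 and 269 (wild-type). Of 8 fibroblast markers 2 had a value, *DCN*, at 15.1 and 105 (edited) against 7.42 and 1.09 (wild-type), and *COL1A1*, which fell in edited cells with a log2 fold change of -2.06 and a limma adjusted p of 0.0420. The 5 endothelial markers were not analysed here. Of 5 leukocyte markers 2 had a value, with sums from 9.31 to 18.0 over the 4 libraries, and 1 of them, *CD74*, fell (log2 fold change -1.89, limma adjusted p = 0.0413). The part of these markers in the levels of the feedback genes was not tested. In bulk RNA, fewer cells of a type and less RNA per cell cannot be told apart.

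The 9 genes lie on 9 different chromosomes, and none of their chromosomes had a median difference as large as theirs. *SPRY4* lies on chromosome 5 from 142310430 to 142325021 (GRCh38, RefSeq), where the 393 tested genes had a median log2 fold change of 0.36. *SPRY2* lies on chromosome 13 from 80335976 to 80341126, where the median of 146 tested genes was -0.27. *DUSP6* lies on chromosome 12 from 89347235 to 89352501, with a median of 0.14 over 432 genes, and *ETV5* on chromosome 3 from 186046314 to 186109089, with a median of 0.04 over 503 genes. The other 5 genes are *DUSP4* (chromosome 8, 29333064 to 29350684), *DUSP5* (chromosome 10, 110497907 to 110511533), *SPRED1* (chromosome 15, 38252836 to 38357249), *SPRED2* (chromosome 2, 65307175 to 65432599) and *ETV4* (chromosome 17, 43527846 to 43546340). Their chromosomes had medians between 0.02 and 0.10. A median over a whole chromosome does not show the level of an arm or a smaller part. The part of copy number in the levels of the 9 genes was not tested.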

How the data were processed

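The authors sequenced poly(A)-selected RNA of 2 edited and 2 wild-type MCF12A libraries (single-end, 75 bases) and deposited 1 normalized expression signal per gene and library. The submitters' processing notes name Salmon, HISAT2 and the build hg38, without versions or roles; the normalization is not given in the sources used here. The deposited signal is not a count table, and whole reads could not be recovered: at the best step per transcript length, only 28 to 41 of 232 to 249 low genes with a single GENCODE transcript were within 0.02 of a whole read in each library, a window that would hold 4% of evenly spread values. Count tests were therefore not used. Depth was estimated from that step, which was chosen to make most genes whole, so the depth and all read numbers are rough.

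The groups were tested by limma 3.58.1 (R 4.3.3) with lmFit and trended eBayes on log2(value + 1), with a mean of at least 10, Benjamini-Hochberg adjustment over all tested genes and a two-sided threshold of 0.05. Genes under that mean were read from the fit of all 16811 genes. On simulated data of the same size (9590 genes), 97 of 100 genes with a log2 change of 2, 69 of 100 with a change of 1 and 3 of 9390 unchanged genes were called, and 0 in a run without changed genes. The simulated noise depended on the mean level only, so these shares do not apply to genes that vary more between replicates. The median difference between the wild-type replicates was 1.59 over the 9 feedback genes. Over the 9590 genes the median absolute difference was 0.24. The study calls the replicates biological, and what they share is not stated. The p-values therefore rest on the spread between these libraries, with the variance that limma shares across genes.

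The 10 feedback genes and the pathway and marker lists were chosen with earlier results of these data known. Beside them, the text names every pathway gene past 0.05, up to the 3 most abundant of a list with fewer than 3 such genes, *FGF2*, *FGFR1*, and the 3 genes most like the tested feedback gene of largest fold change. All other genes, including the single cell markers and *EGFR*, were chosen after their values were seen. One gene that this rule would name is not reported here. Promoters came from RefSeq on GRCh38. The rule allowed promoters of genes past 0.05 only; since none passed, the 2 shown were chosen after the values were seen. Python 3.11.15, numpy 2.4.6 and pandas 2.3.3 were used. Alternatives in pseudocount, filter, scaling, block, variance model, threshold and libraries were computed.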

Additional observations from a re-analysis of the deposited data

How the results depend on the processing

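With 2 libraries a group, the spread between replicates limited these comparisons. The value of *SPRY4* in wild-type replicate 2 came from roughly 10 reads, and the part of depth in it was not tested. Of 131 values of the 9 genes over 15 alternatives, 125 kept their direction and their side of the threshold, 5 passed the threshold and 1 reversed (*ETV4*, -0.069 without wild-type replicate 2 and up to 1.81 without wild-type replicate 1). With each library left out in turn, 0 to 1 of the 9 genes, 4 to 1431 of all tested genes and 0 to 13 pathway genes passed 0.05, against 0, 680 and 7 with all libraries (277 of the 680 higher, 403 lower, and 3095 with an unadjusted p under 0.05). The count over all genes was lowest (4) without wild-type replicate 2, 47 without wild-type replicate 1, 424 without edited replicate 1 and 1431 without edited replicate 2; the cause was not tested. It was 419 with a mean of at least 50, where fewer genes were tested and none of the 9 was among them, and 1 at a threshold of 0.001. With the replicate block, 133 genes and 2 pathway genes passed, and 0 of the 9; the labels share only a number, and same-numbered libraries did not deviate together (correlation across genes -0.14). With the pairing crossed, an alternative chosen after seeing the data, 1002 genes, 11 pathway genes and 4 of the 9 genes passed. Under the other alternatives in pseudocount, filter, scaling and variance model, 0 of the 9 genes passed.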
